A study of Mus musculus with 2 samples.

Results

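The genes described here encode parts of the desmosome and the adherens junction, the adhesive contacts that later make up much of the intercalated disc of heart muscle. They are Dsp, Jup, Pkp2, Dsg2, Dsc2, Cdh2, Ctnna1, Ctnna3, Ctnnb1 and Tjp1, 10 genes of the 55536 annotated genes in the table. They were chosen by symbol in the M21 release of the gene annotation, and all 10 had a single matching row in both libraries. Transcript levels were measured by polyA RNA sequencing of heart tissue from embryos of mouse strain B6NCrl at embryonic day 12.5. The design holds 1 group of 2 libraries, replicate 1 and replicate 2, each made from 10 ng of RNA of male and female embryos pooled together. Both carry the same donor identifier and separate biosample identifiers in the labels, so p-values concern these samples only. All samples analysed here share 1 tissue, strain and stage, so the comparisons are between related genes, between transcripts of a gene, between annotations and between the libraries.

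In a desmosome, cadherins of the desmoglein and desmocollin families reach across the gap between cells, the armadillo proteins plakoglobin and plakophilin bind their tails, and desmoplakin ties this plaque to intermediate filaments. In an adherens junction, a classical cadherin binds beta-catenin or plakoglobin, and alpha-catenin couples that complex to actin. In adult heart muscle both kinds of junction intermix at the intercalated disc, whereas in the embryonic myocardium the contacts are spread more evenly over the cell borders. In humans, inherited variants of desmosomal genes are a known cause of arrhythmogenic cardiomyopathy.

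The libraries held 35520161 expected counts (replicate 1) and 32577548 expected counts (replicate 2). An expected count is an estimate of reads per gene that divides ambiguous reads among their possible sources. The tissue label was borne out by the 8 cardiomyocyte markers, which were all detected and summed to 31074 and 31292 TPM in replicates 1 and 2, with Actc1 (cardiac actin) the highest. TPM is an abundance scaled by transcript length and to a fixed total per library. Markers of other cells were present as well. The 8 endothelial markers summed to 422 and 446 TPM in replicates 1 and 2, the 8 epicardial markers to 274 and 270 TPM and the 7 mesenchymal markers to 1237 and 1188 TPM. The 8 markers of surface and gut epithelium summed to 8.35 and 7.25 TPM, led by Epcam, and 1 of them reached 1 TPM in both libraries. The 6 erythroid markers summed to 32516 and 29177 TPM. The 7 hepatocyte markers summed to 171 and 36.6 TPM in replicates 1 and 2. In whole-tissue RNA a level mixes all these cells, so fewer cells of a type and less RNA per cell cannot be told apart.

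All 10 junction genes were well above the detection level of 1 TPM in both libraries, and together they held 963 and 995 TPM in replicates 1 and 2. They spanned a 17.2-fold range of mean level. The 4 adherens junction genes (Cdh2, Ctnnb1, Ctnna1 and Ctnna3) summed to 670 and 688 TPM in replicates 1 and 2. The 5 desmosome genes, with Jup counted among them, summed to 265 TPM and 274 TPM. The adherens junction sum was thus 2.53 times the desmosome sum in replicate 1 and 2.51 times in replicate 2. It includes 107 and 106 TPM, in replicates 1 and 2, of Ctnnb1-215, a retained-intron transcript of Ctnnb1. The ratio was not recomputed on another annotation or over protein-coding transcripts alone. Among the 22015 nuclear protein-coding genes the junction genes ranked between position 386 (Ctnnb1) and position 6381 (Dsg2) by mean TPM.

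**Figure D1:**
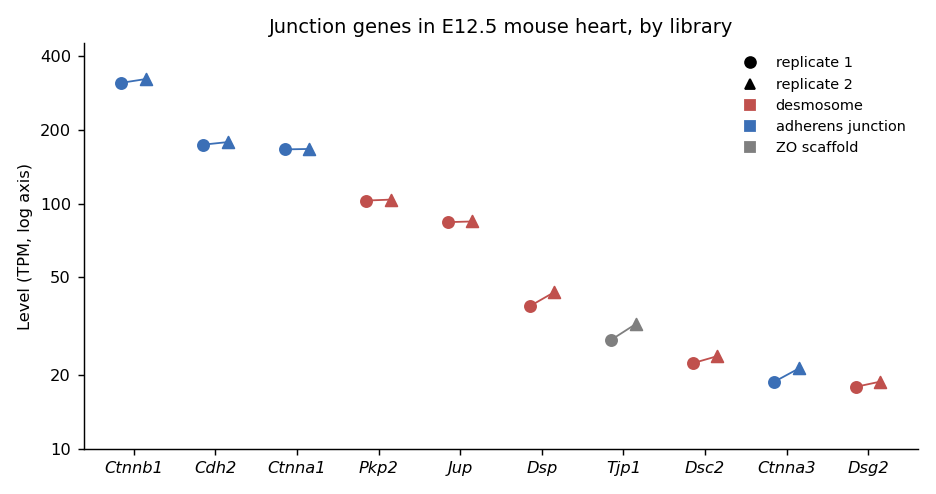
Level of each junction gene in TPM on a log axis, ordered by mean, with circles for replicate 1 and triangles for replicate 2. Ctnnb1, Cdh2 and Ctnna1 lie above 160 TPM, Pkp2 and Jup between 84.0 and 104 TPM, and the other genes below 45 TPM.

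Ctnnb1 encodes beta-catenin, which links cadherin to alpha-catenin at the membrane and also carries Wnt signals to the nucleus. It had 311 and 322 TPM in replicates 1 and 2, the highest level of the 10, at 316 ± 7.96 TPM (mean ± SD, n = 2). Cdh2, the gene of N-cadherin, the classical cadherin of heart muscle, had 174 and 178 TPM in replicates 1 and 2, or 176 ± 3.00 TPM (SD, n = 2). Ctnna1, which encodes alphaE-catenin, followed closely with 166 and 167 TPM, or 167 ± 0.467 TPM (SD, n = 2). The ranges of Cdh2 and Ctnna1 did not overlap, although Cdh2 exceeded Ctnna1 by only 1.05-fold in replicate 1 and 1.07-fold in replicate 2. Ctnna3, the gene of alphaT-catenin, an alpha-catenin known from heart and testis that also binds plakophilin-2, was far lower at 18.8 and 21.3 TPM in replicates 1 and 2. Its mean was 20.0 ± 1.76 TPM (SD, n = 2), and the Ctnna3/Ctnna1 log2 ratio was -3.03 ± 0.085 (SE, n = 2), or 0.123-fold. Of these alpha-catenin genes Ctnna1 was the higher by far in both libraries.

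Of the desmosome genes the armadillo members stood highest. Pkp2, which encodes the main plakophilin of heart muscle, had 103 and 104 TPM in replicates 1 and 2, or 103 ± 0.658 TPM (SD, n = 2). Jup, the gene of plakoglobin, which is found in desmosomes and adherens junctions alike, had 84.0 and 84.5 TPM, or 84.3 ± 0.375 TPM (SD, n = 2). Both armadillo genes thus lay within 1 TPM of themselves in the other library. Dsp, the gene of desmoplakin, reached 38.1 TPM in replicate 1, lower than its 43.5 TPM in replicate 2, or 40.8 ± 3.797 TPM (SD, n = 2). The desmosomal cadherin genes were the lowest of the complex. Dsc2 (desmocollin-2) had 22.3 and 23.9 TPM in replicates 1 and 2, and Dsg2 (desmoglein-2) had 17.9 and 18.8 TPM. Dsc2 exceeded Dsg2 in both libraries, with a Dsg2/Dsc2 log2 ratio of -0.32 ± 0.012 (SE, n = 2).

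Tjp1 encodes ZO-1, a scaffold of tight junctions in epithelia that in heart muscle sits beside the gap junctions of the disc. It showed 27.8 and 32.3 TPM in replicates 1 and 2, between Dsp and Dsc2 in the order. Along that order each gene was clear of the next over both libraries, except that Ctnna3 (18.8 to 21.3 TPM) and Dsg2 (17.9 to 18.8 TPM) overlapped. With 2 libraries such a gap describes these samples and carries no p.

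Ratios of TPM between the junction genes were taken within each library. Cdh2 exceeded Dsg2 by 3.23 ± 0.017 on the log2 scale (SE, n = 2), a 9.36-fold difference, so the classical cadherin stood above the desmoglein in each library. Jup stood below Ctnnb1, its closest relative, with a log2 ratio of -1.90 ± 0.021 (SE, n = 2), or 0.268-fold. Pkp2 and Jup were close to each other, Pkp2 being 1.22-fold higher. Dsp was 0.486-fold of Jup and 2.19-fold of Dsg2. Tjp1 was 0.173-fold of Cdh2. All these ratios carry 0.5 TPM added to each gene.

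Set against other genes of their families, several of the junction genes were the highest of the family genes measured (17 pairs were compared in all, without a test). The desmosomal cadherin genes lie in a run of 9 protein-coding genes on chromosome 18, from Dsc3 at position 19960930 to the end of Dsg2 at position 20604521 (mm10). Dsc2, the second in the run, and Dsg2, the last, were the only genes of the 9 above 1 TPM in either library. The other 7, which are known chiefly from stratified epithelia such as skin, were between 0 and 0.43 TPM. Dsc3 led them with 28 counts in replicate 1 and 25 counts in replicate 2, and Dsg1b and Dsc1 had no count in either library, under a limit of 3 counts per library. Dsg1a had 11 counts in replicate 1 and none in replicate 2, and Dsg1c had none in replicate 1 and 4 in replicate 2, with posterior SDs of at most 0.32. Dsg2 exceeded Dsg3 by 35.6-fold and Dsc2 exceeded Dsc3 by 29.0-fold, ratios that depend on the 0.5 TPM added. On the log2 scale Dsg2/Dsg3 was 5.15 with 0.5 TPM added, 7.15 with 0.1 TPM and 4.23 with 1 TPM, and Dsc2/Dsc3 was 4.86, 5.84 and 4.195 in the same order.

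**Figure D2:**
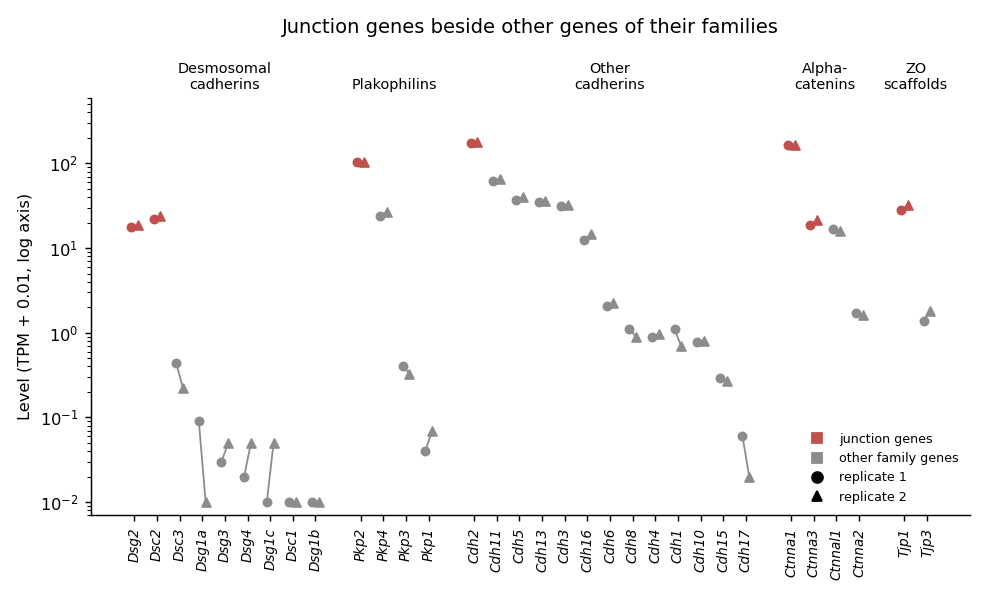
Levels of junction genes (red) and other genes of their families (grey) as TPM plus 0.01 on a log axis, with circles for replicate 1 and triangles for replicate 2. Dsg2 and Dsc2 lie above all other desmosomal cadherins, Pkp2 above the other plakophilins and Cdh2 above the other cadherins shown.

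Among 13 further desmosome genes, 3 were detected at 1 TPM in both libraries and 10 were below it in both. The 3 were Perp, a membrane protein of desmosomes that is a target of p53 (82.7 and 82.0 TPM in replicates 1 and 2), Pkp4, a plakophilin-like protein also found at adherens junctions (23.99 and 26.87 TPM), and Ppl, the cornified-envelope protein periplakin (1.62 and 1.17 TPM). Pkp2 exceeded Pkp4 by 4.01-fold. Among 12 further cadherins, 6 were detected in both libraries. Cdh11, a cadherin of mesenchyme, had 61.7 and 65.6 TPM in replicates 1 and 2, Cdh5, the cadherin of endothelium, 37.3 and 40.2 TPM, and Cdh13, a cadherin held by a lipid anchor, 34.7 and 36.3 TPM. Cdh2 was 4.50-fold above Cdh5 and 129-fold above Cdh1, the epithelial cadherin, which had 1.09 and 0.68 TPM. The lowest of that list were Cdh17 (0.05 and 0.01 TPM) and Cdh15 (0.28 and 0.26 TPM).

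All 14 further catenins and adherens junction linkers were detected in both libraries. Zyx (zyxin, an actin-associated adhesion protein) had 167 and 171 TPM in replicates 1 and 2, Lmo7, which binds the nectin linker afadin, 145 and 152 TPM, and Tln1 (talin, which links integrins to actin) 91.6 and 96.6 TPM. Ctnnd2 (1.07 and 1.28 TPM) and Nectin1 (1.46 and 1.67 TPM) were the lowest. Ctnna1 was 1.92-fold above Vcl, the actin linker vinculin that binds alpha-catenin under tension, and 77.6-fold above Ctnna2, the alpha-catenin known from neurons. Jup and Ctnnd1, the gene of p120-catenin, were close to each other, with a log2 ratio of 0.036 in replicate 1 and -0.0080 in replicate 2. That order turned between the libraries.

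Of 14 tight junction genes beside Tjp1, all were detected. F11r, an immunoglobulin-type adhesion protein, had 55.4 and 55.3 TPM in replicates 1 and 2, Esam, an adhesion protein of endothelium, 42.7 and 46.6 TPM, and Cgnl1 (paracingulin) 42.7 and 44.5 TPM. Ocln, the gene of occludin, a core protein of epithelial tight junctions, was near the limit of detection with 1.24 and 1.13 TPM, as was Tjp3 with 1.37 and 1.80 TPM. Of 12 further genes of intercalated disc proteins, 11 were detected. Des, the gene of the intermediate filament protein that desmoplakin anchors in muscle, had 392 and 405 TPM in replicates 1 and 2, Gja1, the gene of connexin 43, 261 and 272 TPM, and Ldb3, the gene of a sarcomeric Z-disc protein, 177 and 186 TPM. Xirp2, an actin-binding protein of the mature disc, was below detection at 0.06 and 0.10 TPM with 17 and 26 counts.

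The 10 junction genes have 63 annotated transcripts, of which 30 reached 1 TPM in both libraries and 15 had no estimated read in either. Transcripts of the protein-coding class carried 82.1% of their summed TPM in replicate 1 and 81.8% in replicate 2, and retained-intron transcripts carried 16.0% and 16.1%. In 4 genes (Dsg2, Jup, Pkp2 and Ctnna1) the highest transcript carried at least 80% of the gene's mean TPM. Dsg2-201 carried 97.0% of Dsg2 in replicate 1 and 98.8% in replicate 2, Jup-201 carried 94.8% and 93.3% of Jup, Pkp2-201 carried 93.1% and 92.0% of Pkp2, and Ctnna1-201 carried 86.3% and 87.2% of Ctnna1. The other 6 genes were split between transcripts. Read shares between isoforms are estimates, and the deposited posterior SD of a count says how firmly its reads could be placed.

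**Figure D3:**
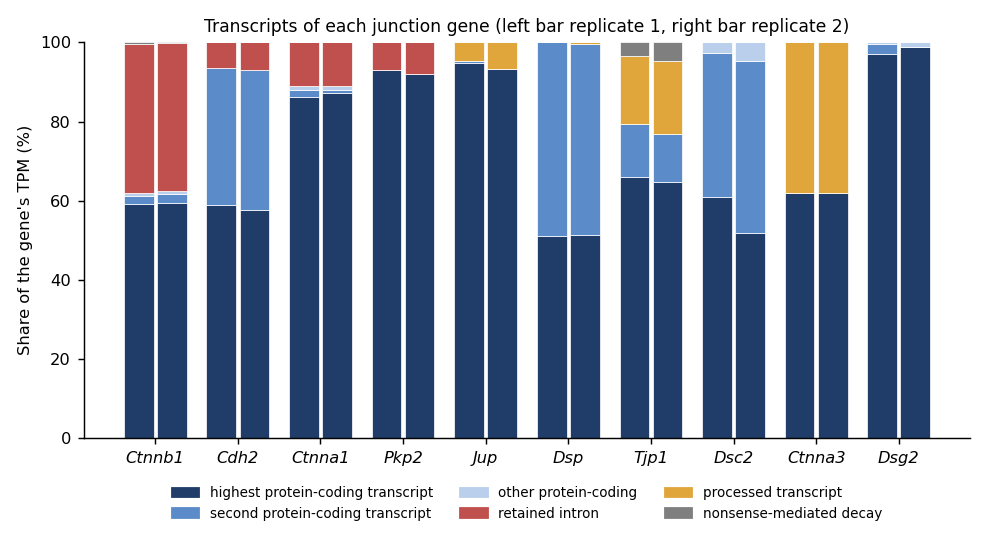
Share of each gene's TPM in its transcripts, in percent, stacked by annotation class, with the left bar for replicate 1 and the right bar for replicate 2. Dsp is divided almost evenly between 2 protein-coding transcripts, Ctnnb1 has a retained-intron share of 37.6% in replicate 1 and 37.5% in replicate 2, and Ctnna3 and Tjp1 have shares in processed transcripts.

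Dsp was divided between the long form of desmoplakin and a form with a shorter central rod. Dsp-201, with 2883 codons, carried 51.1% of the gene's TPM in replicate 1 and 51.4% in replicate 2, and Dsp-202, with 2284 codons, carried 48.9% and 48.2%. In TPM these were 19.5 and 22.3 for Dsp-201 and 18.65 and 20.97 for Dsp-202 in replicates 1 and 2. The forms differ in exon 23 of 24 on chromosome 13 (mm10, plus strand), which runs from 38191361 to 38193655 in Dsp-201 and stops at 38191858 in Dsp-202. The long form thus has 1797 more coding bases, or 599 codons, and Dsp-202 has no base that Dsp-201 lacks, so reads across the exon end tell it apart. The 60 bases around that point are shown from the M21 transcripts (from chr13:38191829-38191888 for Dsp-201) because they separate the forms in sequence. The 30 bases that both share are in lower case, and the bases that follow, from different exonic sequence, are in capitals.
Dsp-201: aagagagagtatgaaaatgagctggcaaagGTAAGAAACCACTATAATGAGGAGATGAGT
Dsp-202: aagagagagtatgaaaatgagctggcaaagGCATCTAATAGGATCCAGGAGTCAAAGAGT
In Dsp-201 the capitals continue exon 23, and in Dsp-202 they are the start of exon 24 at position 38194696. The posterior SD of the Dsp-201 count was 109 in replicate 1, beside a total of 8083 counts for the gene.

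Tjp1 showed mainly the form with a cassette exon that gives ZO-1 its alpha domain. The level of Tjp1-202, which holds the exon, was 18.3 and 20.9 TPM in replicates 1 and 2, or 65.9% and 64.7% of the gene. Tjp1-201 and Tjp1-207, which skip it, had 3.75 and 3.88 TPM and 0.93 and 1.55 TPM. Of the TPM of these 3 long transcripts, the form with the exon held 79.7% in replicate 1 and 79.4% in replicate 2 (79.5 ± 0.217%, SD, n = 2). Tjp1-203, a processed transcript of 699 bases inside the gene with no annotated reading frame, held a further 17.3% and 18.5%. It shares 466 of those bases with Tjp1-202. Its share rested on 71 and 80 counts (posterior SDs 12.6 and 12.5), of 3904 and 4038 for the gene, divided by its short length. The exon is number 20 of 28, covers chr7:65314093-65314332 (mm10, minus strand) and adds 240 bases, or 80 codons, without a shift of frame. It is shown in capitals because it is what the share refers to, with 15 bases of each neighbouring exon in lower case.
Tjp1 exon: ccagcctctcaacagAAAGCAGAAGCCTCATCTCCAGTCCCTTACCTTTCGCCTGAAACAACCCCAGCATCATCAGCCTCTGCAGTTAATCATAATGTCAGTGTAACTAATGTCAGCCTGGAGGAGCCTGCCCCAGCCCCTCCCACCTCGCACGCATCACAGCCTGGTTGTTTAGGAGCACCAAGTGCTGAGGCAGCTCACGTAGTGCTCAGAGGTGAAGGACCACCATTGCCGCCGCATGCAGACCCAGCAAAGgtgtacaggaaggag
In Tjp1-201 the lower-case stretches follow each other directly, and that transcript has 60 bases elsewhere that Tjp1-202 lacks. The posterior SD of its count was 93.4 in replicate 1 and 107 in replicate 2, for 555 and 520 counts.

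Dsc2 and Cdh2 were split as well. Dsc2-201, with 848 codons and 17 exons, carried 61.0% of Dsc2 in replicate 1 and 51.7% in replicate 2, and Dsc2-202, with 902 codons and 16 exons, carried 36.3% and 43.5%. Dsc2-202 has no base that Dsc2-201 lacks, and desmocollin genes are known to make a long and a short cytoplasmic tail by use of an extra exon. Between the libraries Dsc2-201 was higher in replicate 1 (adjusted p = 0.0077, exact binomial test over all transcripts) and Dsc2-202 lower (adjusted p = 1.1e-05), neither past the fold threshold. The posterior SDs of the Dsc2-201 count, 134 in replicate 1 and 126 in replicate 2 for 1524 and 1248 counts, are not part of that test. Cdh2-202 carried 59.0% and 57.7% of Cdh2 in replicates 1 and 2, and Cdh2-201 carried 34.6% and 35.4%. They begin at separate sites on the minus strand of chromosome 18, Cdh2-201 at position 16809246 and Cdh2-202 at position 16670069, and have 906 and 849 codons. A retained-intron transcript, Cdh2-203, held 6.48% and 6.90% and had no base in common with Cdh2-202.

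The level of Ctnna3 was made up of a coding transcript and a processed transcript without a reading frame. Ctnna3-202, which encodes 895 residues, stood at 11.6 and 13.2 TPM in replicates 1 and 2, or 62.0% and 61.9% of the gene. Ctnna3-204, a processed transcript of 3 exons that shares 120 of its 2795 bases with Ctnna3-202, had 6.44 and 7.71 TPM, or 34.3% and 36.3%. Its counts of 428 and 464 had posterior SDs of 1.28 and 1.33, so nearly all were placed without ambiguity. Ctnna3-205, another processed transcript, had 0.70 and 0.40 TPM. Ctnna3-203 and Ctnna3-201, which encode the same 895 residues from other start sites, were estimated at 0 in both libraries, with posterior SDs of 11.8 and 18.8 counts in replicate 1.

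RefSeq lists 3 start sites for Ctnna3 on the plus strand of chromosome 10 (GRCm38.p6), and the 3 transcripts at or next to them had different levels. The first, at position 63430098, is the start of Ctnna3-203, listed at 0 in both libraries. The second, at position 63457511, lies 1 base from the start of Ctnna3-202 (11.6 and 13.2 TPM). The third, at position 63821055, is the start of Ctnna3-205 (0.70 and 0.40 TPM). The 250 bases before the first and the second site are shown because their transcripts differed most in level, with each CG pair in capitals, and they cover chr10:63429848-63430097 and chr10:63457261-63457510.
Ctnna3 site 1: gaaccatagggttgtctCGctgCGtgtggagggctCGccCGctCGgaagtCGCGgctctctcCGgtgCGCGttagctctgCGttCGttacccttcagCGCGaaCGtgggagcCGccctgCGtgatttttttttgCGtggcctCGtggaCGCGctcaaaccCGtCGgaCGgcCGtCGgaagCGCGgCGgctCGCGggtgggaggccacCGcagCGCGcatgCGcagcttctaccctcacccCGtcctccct
Ctnna3 site 2: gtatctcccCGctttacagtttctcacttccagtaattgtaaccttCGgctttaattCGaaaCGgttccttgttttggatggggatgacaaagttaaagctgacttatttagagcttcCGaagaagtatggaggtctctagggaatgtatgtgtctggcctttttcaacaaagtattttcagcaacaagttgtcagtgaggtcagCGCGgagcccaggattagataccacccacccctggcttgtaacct
The stretch before the first site held 36 CG pairs at 67.6% G and C, and the stretch before the second held 7 CG pairs at 44.8%. In windows of 300 bases, which reach 50 bases past the start, the counts were 39 CG pairs at 67.0% and 7 CG pairs at 46.0%. Over such windows of all 32851 RefSeq promoters in the table the median was 7 CG pairs and 52.7% G and C.

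Such windows were on hand for 5 of the 10 junction genes (Dsp, Jup, Ctnna3, Ctnnb1 and Tjp1), 8 windows in all. Both strands were searched for 5 motifs, none of which contains another. GGGCGG was found in the windows of Dsp (4 matches), Jup (2), Tjp1 (2) and both windows of Ctnnb1 (3 each), and in the first window of Ctnna3 (2), against 35.7% of all windows. The second Ctnna3 window, that of the transcript with the highest level, had a single match to GATAA and none to the other 4 motifs. That motif was also found in the third Ctnna3 window and in Tjp1, against 25.4% of all windows. TATAAA, found in 13.6% of all windows, was present in the second Ctnnb1 window and the third Ctnna3 window. CCAAT (37.4% of all windows) was found in Jup, the first Ctnnb1 window and the third Ctnna3 window. CANNTG (72.3% of all windows) was found in Dsp and the third Ctnna3 window.

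Ctnnb1 differed from the other genes in how far its level rested on the annotation. On M21, the full-length coding transcript Ctnnb1-201 reached 184 and 191 TPM in replicates 1 and 2, or 59.2% and 59.4% of the gene. Ctnnb1-215, a retained-intron transcript of a single exon of 1292 bases at the 3′ end of the gene (chr9:120959216-120960507, plus strand), had 107 and 106 TPM, or 34.5% and 33.0%. It shares 1199 of those bases with the last exon of Ctnnb1-201. With protein-coding transcripts alone, Ctnnb1 had 192 and 201 TPM in replicates 1 and 2 and remained the highest of the 10, above Cdh2 counted the same way (163 and 166 TPM). On the older M4 release the largest share went to another coding transcript, Ctnnb1-214, with 53.4% and 54.5%, and Ctnnb1-201 had 40.6% and 36.9%. Ctnnb1-214 is 3422 bases long on M4 and 2702 bases long on M21, where it was estimated at 0.

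The gene level also differed between the releases. Ctnnb1 had 311 and 322 TPM on M21 against 268 and 281 TPM on M4 in replicates 1 and 2, which was 15.3% higher on M21 by the mean. Its expected count ran the other way, at 19787 and 18491 on M21 against 20993 and 19734 on M4. The 3′ end of Ctnnb1 overlaps Ulk4, a kinase-like gene on the opposite strand. On M21, Ulk4 had 1348 and 1355 counts in replicates 1 and 2, against 128 and 103 counts on M4. Of the M21 reads, 1220 and 1252 lay with Ulk4-210, a processed transcript of 759 bases (74.93 and 85.00 TPM) whose 2 exons overlap exons of Ctnnb1-201 by 284 and 475 bases. The Ctnnb1 count on M21 minus that on M4 was -1206 in replicate 1 and -1243 in replicate 2. The posterior SD of the Ctnnb1 count on M21 was 67.0 and 66.6. Ulk4 had the same posterior SDs, 67.0 in replicate 1 and 66.6 in replicate 2. Equal SDs were also found for Dsg2 and Gm16090 (1.13 and 1.06 in replicates 1 and 2) and for Dsp and Gm10129 (1.53 and 1.64). Each of these pairs lies on opposite strands, and in each the uncertain reads were divided between both genes. The other genes opposite a junction gene had SDs of 0. How the counting treated strand was not tested, and overlap reads of Ctnnb1 and Ulk4 cannot be told apart.

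For the other 9 genes the annotation mattered less. Ctnna1 was 6.28% higher on M21 by mean TPM, with 11 annotated transcripts on M21 and a single one on M4. For the remaining 8 the difference in mean TPM, M21 minus M4, lay between -4.49% (Cdh2) and -1.97% (Tjp1), while their counts differed by at most 0.223%. The order of the 10 genes was the same on M21 and M4. The highest transcript was the same on both for 9 genes, the exception being Ctnnb1.

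Between the libraries the junction genes differed little. An exact conditional binomial test, two-sided and adjusted over all 17970 genes tested, called none of the 10 at an adjusted p under 0.05 with a log2 ratio of at least 1 in size, where 282 genes (1.57%) were called in all. The test covers counting error and compares these libraries only. The median log2 ratio of replicate 1 over replicate 2 was -0.031 for the 10 genes, beside 0.0069 for all genes tested. The lowest of the 10 was -0.16 and the highest 0.040 (Jup). Jup, Pkp2, Ctnna1, Cdh2, Ctnnb1, Dsc2 and Dsg2 had intervals that held 0, with unadjusted p between 0.109 and 0.697 in the exact test.

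**Figure D4:**
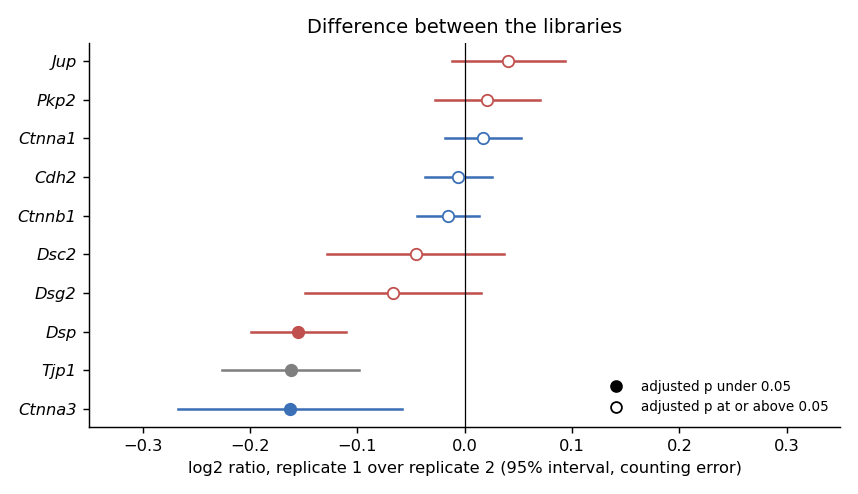
Log2 ratio of replicate 1 over replicate 2 for each junction gene, with exact 95% intervals that cover counting error, filled where the adjusted p was under 0.05. Dsp, Tjp1 and Ctnna3 lie near -0.16, the other 7 genes have intervals that hold 0, and no gene comes near a ratio of 1 in size.

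Without the fold threshold, 3 of the 10 passed the adjusted p, all lower in replicate 1, beside 770 genes (4.28%) of all tested that passed in that direction. Dsp, with 8083 counts in replicate 1 and 8318 in replicate 2, had a log2 ratio of -0.15 (95% interval -0.20 to -0.11), a level 10.2% lower in replicate 1, with an adjusted p of 8.9e-10 by the exact test. Tjp1, with 3904 and 4038 counts, had a log2 ratio of -0.16 (-0.23 to -0.099; adjusted p = 3.4e-05, exact test). Ctnna3, with 1473 and 1524 counts, had a log2 ratio of -0.16 (-0.27 to -0.058; adjusted p = 0.027, exact test). All 3 differences were near 10%, and as they lie between replicates of a single group they describe the libraries alone.

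A gene with many reads can pass such a test at a small ratio. Of the 10, Ctnna3 had the fewest reads and passed. Ctnnb1 had the most, 19787 and 18491 counts in replicates 1 and 2, and did not pass. Among 5057 genes whose summed count reached 2997, the lowest of the junction genes, 330 (6.53%) passed as lower in replicate 1 and 515 (10.2%) as higher in replicate 1. The median size of their log2 ratio was 0.045, close to the 0.043 of the junction genes, and 95.9% of them had a ratio no larger in size than that of Ctnna3. Effective length moved with the ratio among these genes. The median log2 ratio was 0.026 for 1868 genes under 2000 bases, 0.0099 for 1264 genes of 2000 to 3000 bases, -0.0024 for 893 genes of 3000 to 4000 bases, -0.015 for 786 genes of 4000 to 6000 bases and -0.048 for 246 genes of 6000 bases or more. Dsp (8597 bases) and Tjp1 (5688 bases) were the longest of the 10, and Ctnna3 had 3179 bases. All 3 lay below the median of their length class, as did Dsg2, Dsc2 and Ctnnb1. Jup, Pkp2, Ctnna1 and Cdh2 lay above the median of theirs. The part of read number or of length in these differences was not tested.

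**Figure D5:**
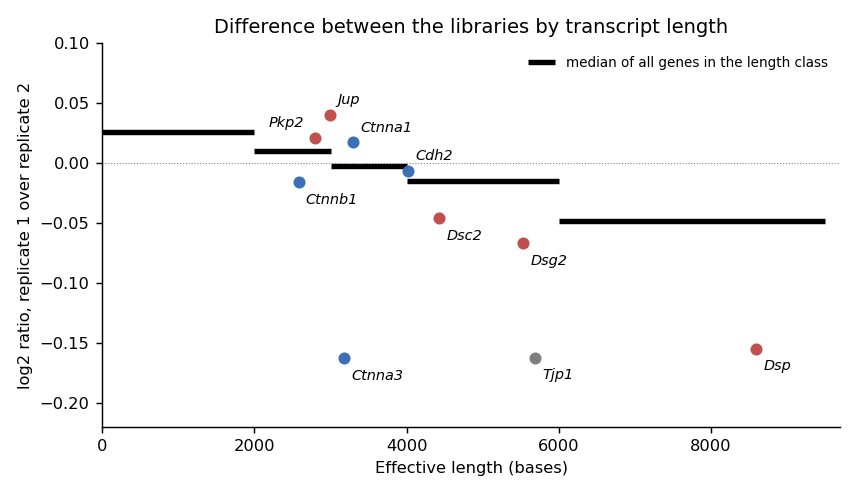
Log2 ratio of replicate 1 over replicate 2 against effective length in bases for the 10 junction genes (points, coloured by complex as in the plot of levels), with black lines for the median in each length class of all genes with a sum of 2997 counts or more. The class medians go down from 0.026 under 2000 bases to -0.048 at 6000 bases or more. Dsp, Tjp1, Ctnna3, Dsg2, Dsc2 and Ctnnb1 lie below the median of their class, and the other genes lie above it.

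The further genes of junctions and of the intercalated disc numbered 65 in 5 lists. None of those tested was called, where 282 genes (1.57%) were called among all 17970 tested. At that share the absence of calls is not a result about these genes. Median log2 ratios of the tested genes in these lists were 0.25 (desmosome, 6 tested of 13), -0.012 (cadherins, 11 of 12), -0.029 (catenins and linkers, 14 of 14), -0.053 (tight junction, 14 of 14) and -0.062 (intercalated disc, 12 of 12). In the desmosome list Ppl and Evpl (103 and 57 counts in replicates 1 and 2) passed the adjusted p as higher in replicate 1 and Pkp4 as lower.  Of the marker lists, all 7 hepatocyte markers were called higher in replicate 1, led by Afp with 97.5 and 18.1 TPM in replicates 1 and 2. In the other 6 marker lists none was called at the fold threshold. The part of liver RNA in the levels of the junction genes was not tested.

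Of the 41 junction gene transcripts with at least 20 summed counts, the same test called 3, where 6353 of 50364 transcripts (12.6%) were called in the whole table. With no filter beyond a summed count of 1, 5 junction gene transcripts were called, beside 9640 transcripts in the whole table. The numbers tested at that setting are not reported here, so these counts give no shares. The 3 called with the filter were minor forms with uncertain counts. Ctnna1-204 had 27.0 counts in replicate 1 with a posterior SD of 12.3 and none in replicate 2. Ctnnb1-208, a transcript marked for nonsense-mediated decay, had 117 and 7.5 counts in replicates 1 and 2 with posterior SDs of 223 and 255. Jup-202 had 23.6 counts in replicate 1 with a posterior SD of 18.7 and none in replicate 2. None of the highest transcripts of the 10 genes was called. Without the fold threshold 11 of the 41 passed the adjusted p, beside 13929 of all 50364 transcripts tested (27.7%).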

How the data were processed

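PolyA RNA of E12.5 hearts of mouse strain B6NCrl was measured in 2 libraries, the biological replicates of 1 group. The authors deposited gene and transcript tables on GENCODE M21 and M4, both on mm10, per the text beside the tables. The expected counts deposited by the authors are estimated reads per feature, not normalized. The deposited TPM values correct for effective length and add up to the same sum in every library, spike-ins included, and the deposited FPKM values, per the file headers, are per length and per read total, and were not used for results. The transcript tables deposited by the authors also give each transcript's percent of its gene's TPM and posterior SDs of counts. The sources used here do not name the aligner, the counter, their versions or the use of strand.

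Gene identifiers were paired with symbols through the M21 annotation, and all 125 listed symbols matched. The members and lists were chosen with earlier results of these data known. Named are all 10 junction genes, all pairs, the 3 highest and 2 lowest genes of each other list, the 3 highest transcripts where they add to the account and every transcript called. A few results that this rule would name are not reported here. Genes named beyond this rule were chosen after their values were seen. Counts were rounded and scaled by TMM (edgeR 4.0.16, R 4.3.3), and tested with an exact conditional binomial test (scipy 1.17.1) for a summed count of at least 20, with Benjamini-Hochberg adjustment. Ratios have 0.5 added to each scaled count, pair ratios 0.5 added to each TPM. Intervals, at 95%, cover counting error only, since the labels name no molecular identifiers. The test was tried on simulated counts with known changes. These counts held counting error alone, so the trial does not cover variance between libraries or uncertain placement of reads. Levels, shares and pair ratios carry no test. Exon sequences came from M21 transcripts and promoter windows from RefSeq (GRCm38.p6). DESeq2 1.42.0 size factors, ERCC scaling and the other alternatives are given in the closing section.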

Additional observations from a re-analysis of the deposited data

How the results depend on the processing

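None of the 10 junction genes was called with DESeq2 size factors, with ERCC scaling, without the count filter or on M4, and 3 passed without the fold threshold. Genes called in all numbered 1799 of 17970 tested without the fold threshold. Transcripts called numbered 9640 without the count filter, where the number tested is not reported here, and 13929 of 50364 tested without the fold threshold. The Cdh2 log2 ratio between the libraries turned to 0.0033 under ERCC scaling, and the other 39 of 40 recomputed ratios of single genes kept their direction and their side of the threshold. The summed level of the 10 genes was 949 TPM on M4, 1337 TPM scaled to nuclear protein-coding genes without globins, and 802 TPM over protein-coding transcripts alone, an alternative chosen after the data were seen, which also put Dsg2 above Ctnna3. Without a replicate it was 963 to 995 TPM. The order of the 10 was otherwise the same under each of these settings. Of 17 pairs, 12 had the first gene higher, and leaving out a replicate gave 11 to 12. Counts not divided by length turned the log2 ratios of Dsg2/Dsc2 (0.012), Dsp/Jup (0.48) and Jup/Ctnnd1 (-0.70), since the genes differ in length. Jup/Ctnnd1 ran from -0.0080 to 0.036 when a replicate was left out. By expected counts 0 genes differed by over 10% between annotations, against 1 (Ctnnb1) by TPM. A call between libraries cannot be recomputed without a replicate. No paired analysis was possible because there is a single group. Depth limits what can be said of genes under 1 TPM.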

Other observations

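Other annotated genes than Ulk4 overlap a junction gene. On M21 the highest of these were Gm23854, a small nuclear RNA inside Ctnna3 with no count in replicate 1 and 1 count (4.98 TPM) in replicate 2, Gm10118, inside Ctnna3 (2.00 TPM in replicate 1 and 2.43 TPM in replicate 2), and Lrrtm2, inside Ctnna1 (1.59 and 1.85 TPM). All of these lie on the opposite strand. Lrrtm3, which spans 161806 bases of Ctnna3 on the opposite strand, had 50 and 58 counts in replicates 1 and 2.

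Retained-intron transcripts had very different shares among the junction genes for which such transcripts are annotated. They held 37.6% of Ctnnb1 in replicate 1 and 37.5% in replicate 2, 11.1% of Ctnna1 in both, 6.92% and 8.03% of Pkp2 and 6.48% and 6.90% of Cdh2. Most of the Ctnnb1 share was Ctnnb1-215 (34.5% and 33.0%), a single exon that shares 1199 of its 1292 bases with Ctnnb1-201. In Tjp1 the annotated retained-intron transcripts, Tjp1-204 and Tjp1-206, were estimated at 0 in both libraries. Dsg2, Dsc2, Jup, Dsp and Ctnna3 have no annotated transcript of this class.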
